A study of Homo sapiens with 6 samples.

Results

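Fatty acid synthesis, storage in lipid droplets, lipolysis and oxidation were examined through 42 genes in AsPC-1, a human cell line established from pancreatic cancer, with and without forced expression of MMP28, a secreted matrix metalloproteinase. The 42 genes were selected by symbol as known genes of these pathways, from the 58735 genes of the count table, and all 42 passed the filter on low counts that left 15319 genes for testing. The 3 Vector libraries (genotype WT) came from cells given an empty virus, and the 3 OE-MMP28 libraries came from cells given a lentivirus that carried MMP28. The study's methods give the MMP28 vector GFP and puromycin resistance and describe selection of stably infected cells with puromycin for a week, so the OE-MMP28 cells were a selected population with MMP28 from a virus added to their own. Whether the empty virus carried the same markers is not given in the sources used here. Because the gene list was put together with earlier results of this same contrast known, every difference between the groups below is a description of these 6 libraries and lends no support to any statement about the pathway.

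Cells store surplus fatty acids as triacylglycerol in lipid droplets, which are coated by perilipins. Fatty acids are built by the chain from ATP citrate lyase to fatty acid synthase, lengthened by elongases, given double bonds by desaturases, activated to acyl-CoA, and then either esterified into triacylglycerol or carried into mitochondria for oxidation. Lipolysis takes the stored fat apart again in steps, with adipose triglyceride lipase (PNPLA2), hormone-sensitive lipase (LIPE) and monoacylglycerol lipase (MGLL) acting in turn.

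MMP28 itself, the check of the labels, measured 5.17, 9.11 and 8.43 FPKM (fragments scaled to gene length and library size) in Vector 1, 2 and 3 and 13.1, 13.9 and 15.1 FPKM in OE-MMP28 1, 2 and 3. Every OE-MMP28 library lay above every Vector library. Total counts ranged from 13633249 to 16691458 per library, and mitochondrial genes took 11.9% to 14.8% of the counts in Vector and 8.80% to 11.9% in OE-MMP28. The part of that share in the differences below was not tested beyond a fit without mitochondrial genes, in which each member call was the same. All 7 pancreatic epithelial markers averaged at least 1 FPKM, the lowest being KRT7 (mean 1.47, with 0.597 in Vector 3). In OE-MMP28, MUC1 and KRT19 were higher and CDH1 lower (edgeR quasi-likelihood test, adjusted p = 3.60e-08, 0.00175 and 0.0113), where 23.4% of all genes tested passed 0.05. All 9 macrophage and leukocyte markers averaged less than 1 FPKM (their sum was 0.794 to 1.21 FPKM per library, with CD86 and TYROBP at 0 counts). Of 7 fibroblast markers, 6 averaged under 1 FPKM, and the exception was LUM, at 33.8 to 56.9 FPKM.

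Of the 42 genes, 11 passed an adjusted p under 0.05 (edgeR quasi-likelihood test, Benjamini-Hochberg over all genes tested), 4 higher and 7 lower in OE-MMP28. Among all genes tested 23.4% passed, 11.7% higher and 11.6% lower, against 26.2%, 9.52% and 16.7% of the 42, so the shares lay near the background. Groups without overlap were seen for 17 of the 42 (40.5%), against 38.1% of all genes tested. The median log2 fold change (OE-MMP28 over Vector, on TMM-scaled counts) was -0.08 for the 42 genes and 0.01 for all genes tested. The genes that rose were ELOVL1, ABHD5, G0S2 and MGLL, and those that fell were SCD, FADS3, ACSL1, LPIN1, PLIN2, PNPLA2 and HADHA. They belonged to different steps of the pathways, as the map of values by library shows.

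**Figure D1:**
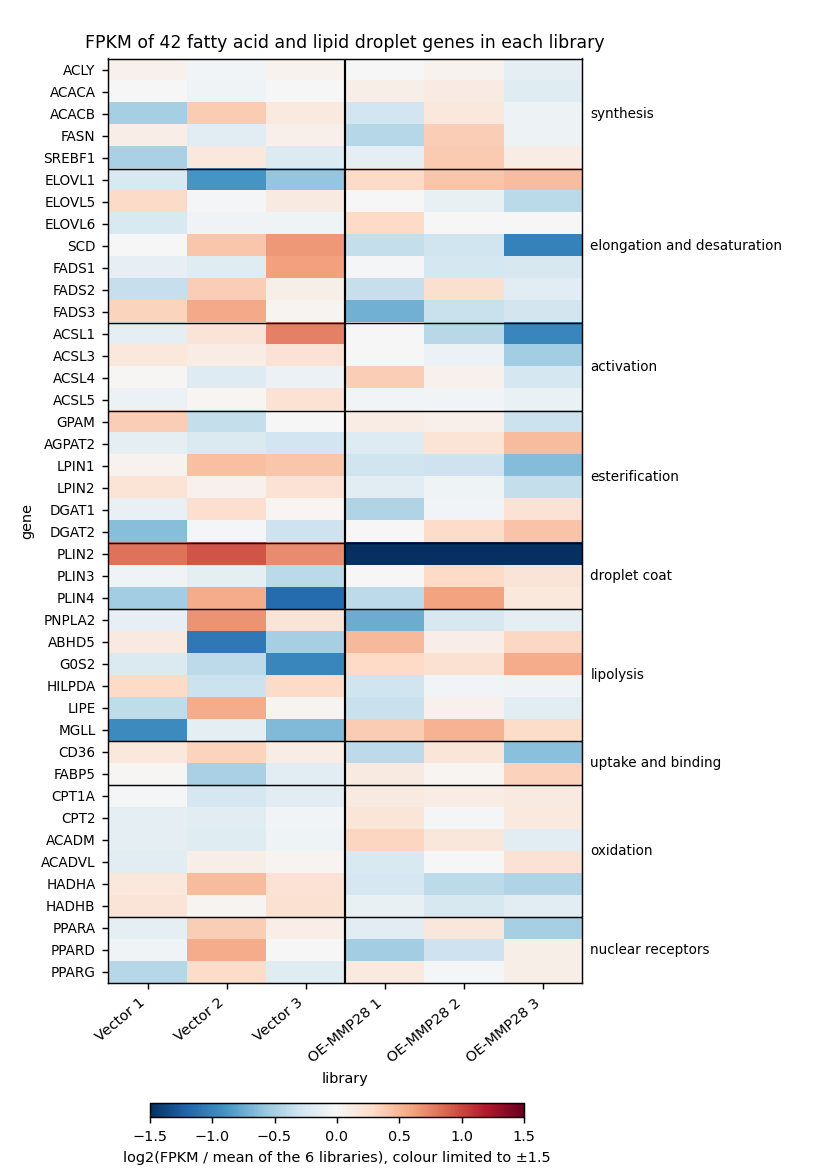
Colour map of the FPKM of each of the 42 genes (vertical axis, grouped by role) in the 6 libraries (horizontal axis), as log2 of the ratio to the gene's mean over the libraries, with the colour limited at 1.5 on either side. PLIN2 is the gene with the deepest contrast, red in all 3 Vector and dark blue in all 3 OE-MMP28 libraries, whereas the 5 synthesis genes stay pale.

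**Figure D2:**
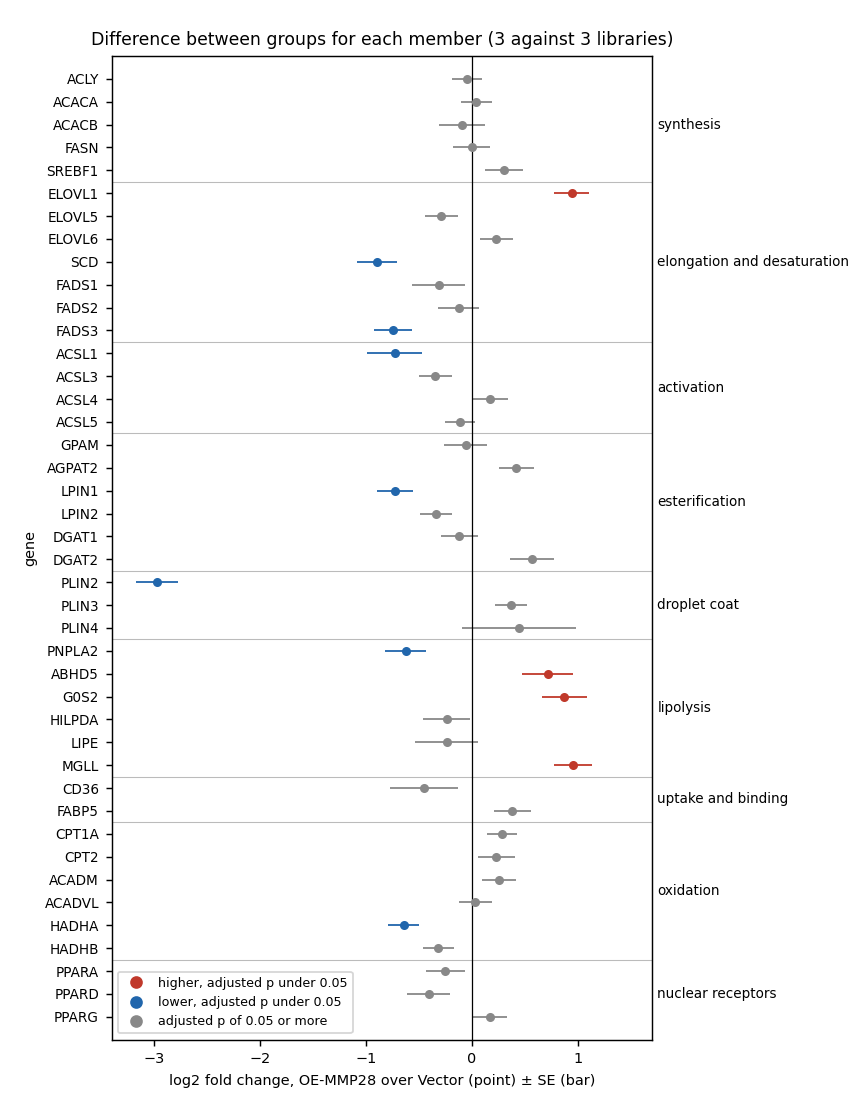
Log2 fold change of each of the 42 genes (points, horizontal axis) with its standard error (bars), grouped by role on the vertical axis. The 4 genes higher at an adjusted p under 0.05 are red, the 7 lower are blue and the other 31 are grey, and PLIN2 at -2.97 is far to the left of all others.

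The largest difference in the list was that of PLIN2 (perilipin 2, the coat protein found on lipid droplets of most cell types; ENSG00000147872, chr9:19108375-19149290, minus strand, GRCh38). PLIN2 measured 5.02, 5.47 and 4.64 FPKM in Vector 1, 2 and 3 (390, 376 and 348 counts) and 0.646, 0.682 and 0.584 FPKM in OE-MMP28 1, 2 and 3 (52, 55 and 50 counts). The groups lay far apart and the libraries within each lay close together. The mean was 5.04 ± 0.414 FPKM in Vector and 0.638 ± 0.0495 FPKM in OE-MMP28 (SD, n = 3 each), 7.91-fold lower, with a log2 fold change of -2.97 (SE 0.20) and an adjusted p of 6.87e-09. Of the 15319 genes tested, 46 had a lower log2 fold change. PLIN2 kept an adjusted p under 0.05 in all 19 alternative fits, the highest being 0.0112, and its log2 fold change stayed between -3.04 and -2.91 when any single library was left out.

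The tested genes nearest to PLIN2 on chromosome 9 had much smaller fold changes. The 7 other tested genes that start within 500000 bases of it had log2 fold changes from -0.49 to 0.15. Within 5 Mb on either side the median log2 fold change of 27 tested genes was 0.06. Their values ranged from -1.08 to 7.89, and 7 were called (23.4% of all genes tested were). The value of 7.89 was that of MLLT3.

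The other perilipins among the 42 genes were not called. PLIN3, which moves between cytosol and droplets and was the most abundant perilipin by FPKM, measured 41.1, 38.9 and 32.1 FPKM in Vector 1, 2 and 3 and 42.3, 52.4 and 48.7 FPKM in OE-MMP28 1, 2 and 3. Every OE-MMP28 value was above the Vector values, and the adjusted p for a log2 fold change of 0.37 (SE 0.15) was 0.0896. PLIN4, a perilipin of adipocytes and muscle, stood at 0.0417 to 0.165 FPKM, and its groups overlapped. As a share of the summed FPKM of all 5 perilipins, PLIN2 went from 11.9% ± 0.911 to 1.32% ± 0.163 (SD, n = 3 each) and PLIN3 from 87.6% ± 1.15 to 98.4% ± 0.158. The perilipin sum was 42.6 ± 4.96 FPKM in Vector and 48.6 ± 5.15 FPKM in OE-MMP28, so the makeup differed while the sums differed by little more than their spread.

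Promoter sequence is shown for 3 of the called genes, from the droplet coat, lipolysis and elongation, because they hold matches to motifs of lipid or oxygen regulators. The windows run from 250 bases before to 50 bases after the transcription start given by RefSeq on GRCh38.p14, in the direction of transcription, and such windows were matched for 36 of the 42 genes. FASN, DGAT1, DGAT2, HILPDA, MGLL and FABP5 had no window and were not searched. Capitals mark the matches. The windows are PLIN2 at chr9:19127443-19127742 (minus strand), PNPLA2 at chr11:818664-818963 (plus strand) and ELOVL1 at chr1:43367962-43368261 (minus strand).
PLIN2: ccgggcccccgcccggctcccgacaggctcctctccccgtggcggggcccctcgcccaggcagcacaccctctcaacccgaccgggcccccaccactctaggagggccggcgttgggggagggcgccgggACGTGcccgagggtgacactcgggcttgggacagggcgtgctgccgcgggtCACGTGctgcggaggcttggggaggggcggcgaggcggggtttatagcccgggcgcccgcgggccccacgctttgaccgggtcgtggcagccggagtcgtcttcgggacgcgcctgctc
PNPLA2: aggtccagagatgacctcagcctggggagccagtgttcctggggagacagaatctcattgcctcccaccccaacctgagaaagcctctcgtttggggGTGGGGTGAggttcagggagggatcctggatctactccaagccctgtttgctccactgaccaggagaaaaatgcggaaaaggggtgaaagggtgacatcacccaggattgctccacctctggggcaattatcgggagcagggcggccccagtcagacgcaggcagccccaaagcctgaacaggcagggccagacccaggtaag
ELOVL1: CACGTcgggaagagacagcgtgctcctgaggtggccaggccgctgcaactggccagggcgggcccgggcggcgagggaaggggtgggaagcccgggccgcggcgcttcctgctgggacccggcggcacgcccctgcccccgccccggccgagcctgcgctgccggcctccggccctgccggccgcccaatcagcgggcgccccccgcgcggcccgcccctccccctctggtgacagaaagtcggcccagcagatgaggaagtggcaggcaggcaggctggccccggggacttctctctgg

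The motifs searched on both strands were the sterol regulatory element TCACNCCAC, the PPAR direct repeat, the E-box CACGTG and the hypoxia element ACGTG, whose letters lie inside the E-box. The PLIN2 window held an E-box from position -69 to -64 before the start, which also contains ACGTG, and a further ACGTG from -120 to -116. The sterol element was found in the PNPLA2 window alone among the 36, from -153 to -145 on the opposite strand, and in 1.15% of all 27305 promoter windows. The E-box was in 2 of the 36 windows (ELOVL5 and PLIN2) and in 7.43% of all windows, and ACGTG was in 6 of the 36 (ACACB, ELOVL1, ELOVL5, ELOVL6, PLIN2 and PPARG) and in 21.6% of all windows. The PPAR repeat was in none of the 36 and in 0.022% of all windows. A match is a string of letters, and no binding was measured.

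Of the 6 lipolysis genes, 4 were called (against 23.4% of all genes tested), and for PNPLA2 and ABHD5 the call was lost when certain single libraries were left out. PNPLA2, the lipase that takes the first fatty acid from triacylglycerol (chr11:818902-825573, plus strand), measured 20.8, 36.0 and 25.8 FPKM in Vector 1, 2 and 3 and 13.5, 19.2 and 20.4 FPKM in OE-MMP28 1, 2 and 3. The FPKM groups were separated only by the gap between Vector 1 and OE-MMP28 3, and on TMM-scaled counts the groups overlapped. The log2 fold change of PNPLA2 was -0.62 (SE 0.20, adjusted p = 0.025). It was -0.39 (adjusted p = 0.141) without Vector 2, -0.48 (adjusted p = 0.109) without OE-MMP28 1 and -0.70 (adjusted p = 0.0583) without OE-MMP28 2.

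Of 3 regulators of that lipase, G0S2 and ABHD5 were called higher and HILPDA was not called. G0S2, an inhibitor of PNPLA2 (chr1:209675420-209676388, plus strand), measured 12.7, 11.2 and 7.44 FPKM in Vector 1, 2 and 3 and 18.1, 17.2 and 21.6 FPKM in OE-MMP28 1, 2 and 3. All 3 OE-MMP28 values exceeded the Vector values, and G0S2 rose by 0.87 on the log2 scale (SE 0.21, adjusted p = 0.00561). ABHD5, also called CGI-58, is the co-activator of PNPLA2 (chr3:43690108-43734371, plus strand). It measured 1.89, 0.814 and 1.21 FPKM in Vector 1, 2 and 3 and 2.42, 1.85 and 2.13 FPKM in OE-MMP28 1, 2 and 3. Vector 1 lay within the OE-MMP28 range, and the log2 fold change was 0.71 (SE 0.24, adjusted p = 0.0358). The ABHD5 call was lost without Vector 2 (0.47, adjusted p = 0.146), Vector 3 (0.66, adjusted p = 0.0954), OE-MMP28 1 (0.61, adjusted p = 0.125), OE-MMP28 2 (0.80, adjusted p = 0.0618) or OE-MMP28 3 (0.71, adjusted p = 0.0963). HILPDA, another inhibitor of PNPLA2, was at 4.51 ± 1.03 FPKM in Vector and 3.79 ± 0.374 FPKM in OE-MMP28 (SD, n = 3 each), and its groups overlapped (log2 fold change -0.24, adjusted p = 0.475).

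MGLL, which acts on monoacylglycerol in the last step (chr3:127689062-128052190, minus strand), measured 4.93, 8.70 and 6.07 FPKM in Vector 1, 2 and 3 and 12.5, 13.8 and 11.6 FPKM in OE-MMP28 1, 2 and 3. All OE-MMP28 libraries were above all Vector libraries, and the log2 fold change was 0.95 (SE 0.18, adjusted p = 0.00082). Tested genes within 5 Mb of MGLL had a median log2 fold change of 0.55, and with that median as an offset the fold change of MGLL was 0.40 (adjusted p = 0.135). LIPE, the hormone-sensitive lipase of the middle step, was at 0.515 to 0.995 FPKM in Vector and 0.534 to 0.703 FPKM in OE-MMP28, and the groups overlapped. An antisense gene, LIPE-AS1, covers 9.60% of its exon length, and reads of the pair cannot be told apart without strand.

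Ratios within a library set these genes side by side per length. The ratio of G0S2 to PNPLA2 in FPKM was 0.610, 0.311 and 0.288 in Vector 1, 2 and 3 and 1.34, 0.897 and 1.06 in OE-MMP28 1, 2 and 3. The ratio of MGLL to PNPLA2 was 0.237, 0.242 and 0.235 in the Vector libraries and 0.925, 0.718 and 0.569 in the OE-MMP28 libraries. In each of these ratios the groups did not overlap. That follows from the single genes, whose FPKM groups did not overlap and differed in opposite directions, and adds nothing to them. The Vector values of MGLL to PNPLA2 were nearly equal although both genes varied between those libraries, but the OE-MMP28 values ran from 0.569 to 0.925. That closeness was picked out after several ratios had been computed, and it was not tested. The ratio of ABHD5 to PNPLA2 was 0.0534 ± 0.0345 in Vector and 0.127 ± 0.0458 in OE-MMP28 (SD, n = 3 each).

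**Figure D3:**
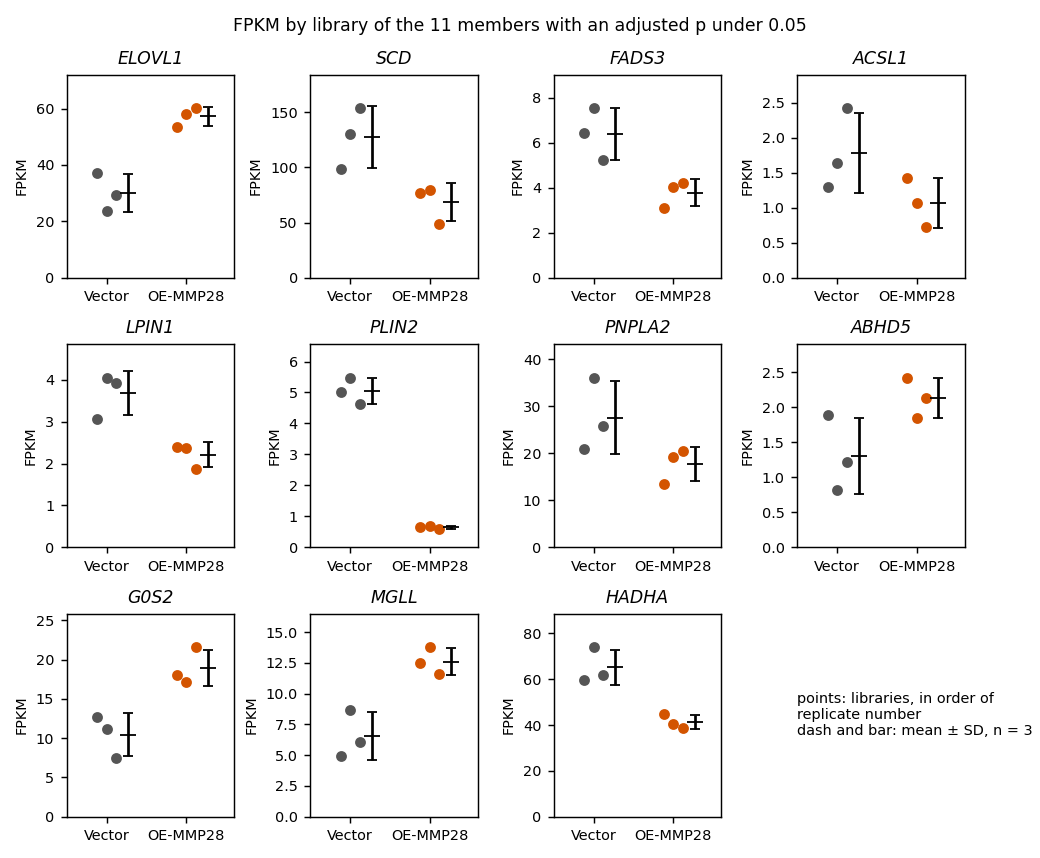
FPKM (vertical axis, starting at 0) of the 11 genes with an adjusted p under 0.05 in the 3 Vector and 3 OE-MMP28 libraries (points), with mean and SD beside them. The PLIN2 points of the groups are widely separated, while those of ACSL1 and ABHD5 overlap and those of PNPLA2 nearly meet.

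Elongation and desaturation genes, which set chain length and the number of double bonds, were called in both directions. ELOVL1, the elongase of saturated and monounsaturated very long chains (chr1:43363397-43368074, minus strand), measured 37.3, 23.7 and 29.2 FPKM in Vector 1, 2 and 3 and 53.4, 58.2 and 60.1 FPKM in OE-MMP28 1, 2 and 3. No Vector library reached the OE-MMP28 values, and ELOVL1 rose by 0.94 on the log2 scale (SE 0.17, adjusted p = 0.000469). ELOVL5, which lengthens polyunsaturated chains, went from 20.5 ± 2.16 to 16.7 ± 2.35 FPKM (SD, n = 3 each), with overlapping groups and an adjusted p of 0.193. ELOVL6, which lengthens palmitate, had groups that did not overlap and a log2 fold change of 0.23 (adjusted p = 0.298). ELOVL1 made up 50.02% ± 4.46 of the summed FPKM of the 7 elongases in Vector and 68.7% ± 4.03 in OE-MMP28 (SD, n = 3 each), and ELOVL5 34.5% ± 1.14 and 20.0% ± 2.81.

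SCD (stearoyl-CoA desaturase, which makes oleate; chr10:100347124-100364834, plus strand) had the highest mean FPKM of the 42 genes in the Vector libraries. It measured 98.4, 130.7 and 153.4 FPKM in Vector 1, 2 and 3 and 76.7, 79.6 and 48.4 FPKM in OE-MMP28 1, 2 and 3. All Vector libraries were above all OE-MMP28 libraries, and SCD fell by 0.89 on the log2 scale (SE 0.19, adjusted p = 0.00187). Tested genes within 5 Mb had a median of -0.46, and with that offset the log2 fold change of SCD was -0.43 (adjusted p = 0.124).

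The FADS desaturases lie together on chromosome 11, and the member of the cluster that was called was FADS3 (chr11:61873519-61892051, minus strand). FADS3 measured 6.45, 7.54 and 5.24 FPKM in Vector 1, 2 and 3 and 3.10, 4.06 and 4.21 FPKM in OE-MMP28 1, 2 and 3. The groups did not overlap, and FADS3 fell by 0.74 on the log2 scale (SE 0.18, adjusted p = 0.00561), while its neighbours had a median of 0.23. FADS2, the delta-6 desaturase, was at 5.55 ± 1.34 FPKM in Vector and 5.04 ± 1.11 FPKM in OE-MMP28, and FADS1, the delta-5 desaturase, at 0.749 ± 0.248 and 0.599 ± 0.0592 FPKM (SD, n = 3 each). FADS1 and FADS2 overlap on opposite strands over 4.79% of the FADS1 exon length, so that the low FADS1 counts are uncertain.

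**Figure D4:**
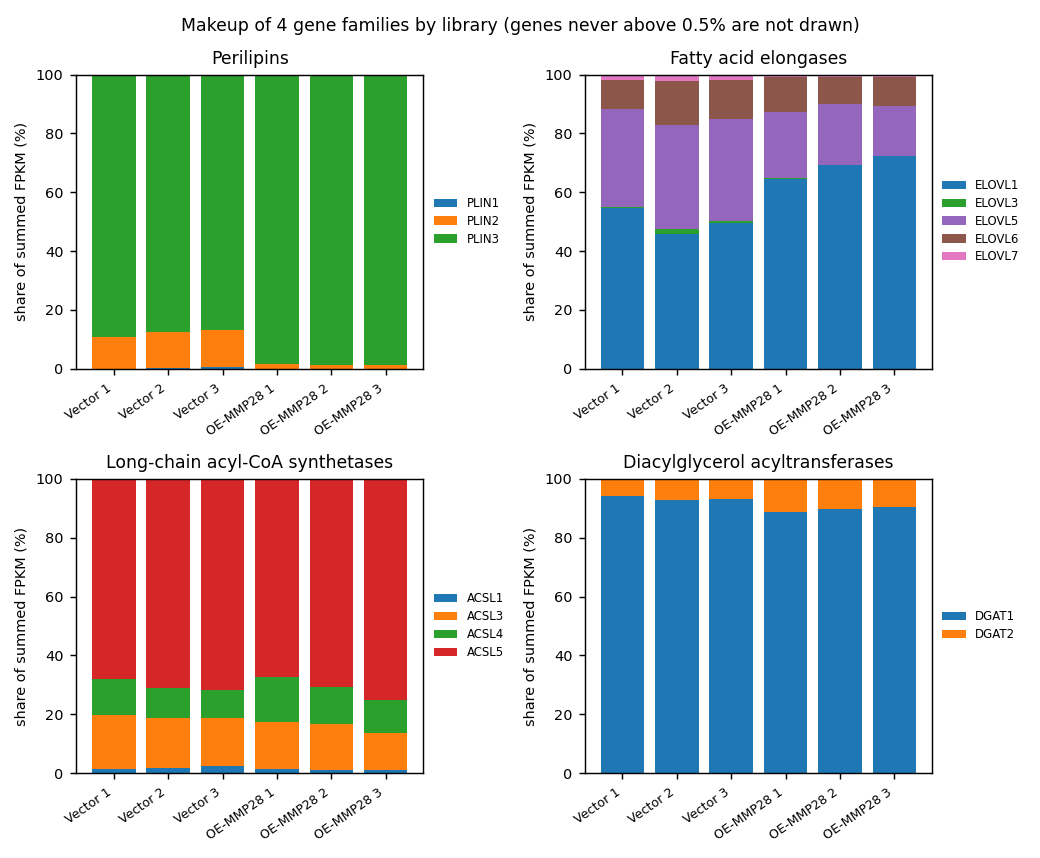
Share of the summed FPKM of a gene family (vertical axis, percent) taken by each gene in each of the 6 libraries (bars), for perilipins, elongases, long-chain acyl-CoA synthetases and diacylglycerol acyltransferases, without genes that never pass 0.5%. PLIN2 takes 10.9% to 12.6% of the perilipins in Vector and 1.18% to 1.501% in OE-MMP28, and ELOVL1 takes 45.8% to 54.7% and 64.5% to 72.5% of the elongases.

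The synthesis genes showed no called difference. ACLY (ATP citrate lyase), ACACA and ACACB (acetyl-CoA carboxylases), FASN (fatty acid synthase) and SREBF1, which encodes the transcription factor that drives lipogenic genes, had log2 fold changes from -0.09 to 0.30. None of the 5 was called by edgeR, DESeq2 or limma voom. Of all genes tested, 23.4% were called by edgeR, and 5 genes are too few to set apart from that share. An unadjusted p under 0.05 in edgeR was seen for 0 of the 5. The share of all genes with such a p was not counted. FASN measured 21.7, 18.2 and 21.3 FPKM in Vector 1, 2 and 3 and 15.1, 26.3 and 19.2 FPKM in OE-MMP28 1, 2 and 3, so the Vector values lay inside the OE-MMP28 range. The ratio of SCD to FASN was 6.30 ± 1.53 in Vector and 3.55 ± 1.36 in OE-MMP28 (SD, n = 3 each), with overlapping groups. RAI1 lies on the other strand over 6.92% of the SREBF1 exon length, so part of the SREBF1 counts is uncertain.

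Among the 4 acyl-CoA synthetases, which activate long-chain fatty acids, ACSL1 (chr4:184755595-184826818, minus strand) was the only gene called. Of all genes tested, 23.4% were called. ACSL1 measured 1.29, 1.64 and 2.42 FPKM in Vector 1, 2 and 3 and 1.43, 1.06 and 0.719 FPKM in OE-MMP28 1, 2 and 3. The groups overlapped, and the adjusted p of 0.0494 for a log2 fold change of -0.73 (SE 0.26) was the closest to the threshold of the 11. The call was lost without Vector 3 (-0.44, adjusted p = 0.319), OE-MMP28 2 (-0.74, adjusted p = 0.13) or OE-MMP28 3 (-0.51, adjusted p = 0.22), and by limma voom (-0.73, adjusted p = 0.0583). ACSL5, the synthetase of mitochondria and endoplasmic reticulum in gut epithelium, carried 70.2% ± 1.90 of the summed FPKM of the family in Vector and 71.1% ± 3.81 in OE-MMP28 (SD, n = 3 each). ACSL3, found on nascent droplets, had groups that did not overlap and a log2 fold change of -0.34 (adjusted p = 0.118).

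In the esterification steps toward triacylglycerol, LPIN1 (lipin 1, a phosphatidate phosphatase that makes diacylglycerol; chr2:11677595-11827409, plus strand) was the called gene. LPIN1 measured 3.07, 4.05 and 3.94 FPKM in Vector 1, 2 and 3 and 2.39, 2.38 and 1.87 FPKM in OE-MMP28 1, 2 and 3. Again the Vector values were all the higher ones, and LPIN1 fell by 0.72 on the log2 scale (SE 0.17, adjusted p = 0.0045). Its neighbours had a median of -0.39, and under that offset the log2 fold change was -0.34 (adjusted p = 0.196). LPIN2, its paralogue, had a log2 fold change of -0.34 (adjusted p = 0.111) with groups that did not overlap.

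The acyltransferases were not called. DGAT2, which adds the last fatty acid of triacylglycerol, measured 0.993, 1.53 and 1.25 FPKM in Vector 1, 2 and 3 and 1.56, 1.88 and 2.09 FPKM in OE-MMP28 1, 2 and 3. A narrow gap between Vector 2 and OE-MMP28 1 kept the groups apart, and the adjusted p was 0.0555 for a log2 fold change of 0.56 (SE 0.21). It was 0.73 (adjusted p = 0.0219) without Vector 2 and 0.66 (adjusted p = 0.0411) without OE-MMP28 1. The lowest value with 1 library left out was 0.42, and 16 of 19 alternative fits did not call DGAT2. Tested genes within 5 Mb of DGAT2 had a median of 0.36, and with that offset its log2 fold change was 0.21 (adjusted p = 0.553). DGAT1, which catalyses the same step, was at 17.6 ± 2.23 FPKM in Vector and 16.01 ± 3.58 FPKM in OE-MMP28 (SD, n = 3 each), so that DGAT2 took 6.65% ± 0.591 and 10.4% ± 0.78 of the summed FPKM of the pair. AGPAT2, which makes phosphatidate, measured 90.9, 119.8 and 143.4 FPKM in OE-MMP28 1, 2 and 3 against 84.7 to 93.2 FPKM in Vector (log2 fold change 0.42, adjusted p = 0.0707). With 1 library left out, its log2 fold change ranged from 0.25 to 0.57, and it was called only without OE-MMP28 1 (0.57, adjusted p = 0.0142). AGPAT2 was not called in 18 of 19 alternative fits. GPAM, the mitochondrial glycerol-phosphate acyltransferase, overlapped between groups.

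Of the 6 oxidation genes, 1 was called (HADHA, lower), against 23.4% of all genes tested. HADHA encodes the alpha subunit of the mitochondrial trifunctional protein (chr2:26190635-26244726, minus strand) and measured 59.7, 73.9 and 62.0 FPKM in Vector 1, 2 and 3 and 44.9, 40.6 and 39.0 FPKM in OE-MMP28 1, 2 and 3. The groups did not overlap, and the log2 fold change was -0.64 (SE 0.15, adjusted p = 0.00331). HADHB encodes the beta subunit and lies next to HADHA on chromosome 2. It measured 21.1, 19.1 and 21.7 FPKM in the Vector libraries and 17.1, 15.7 and 16.5 FPKM in the OE-MMP28 libraries, also without overlap, with a log2 fold change of -0.32 (SE 0.15, adjusted p = 0.122). The tested genes within 5 Mb had medians of -0.55 for HADHA and -0.57 for HADHB. With the offset the log2 fold change of HADHA was -0.10 (adjusted p = 0.705). That of HADHB changed sign, to 0.26 (adjusted p = 0.253). CPT1A and CPT2, the carnitine palmitoyltransferases that bring acyl groups into mitochondria, had groups that did not overlap and log2 fold changes of 0.28 (adjusted p = 0.156) and 0.23 (adjusted p = 0.363). The neighbours of CPT1A had a median of 0.31, and with that offset its log2 fold change was -0.03 (adjusted p = 0.916). ACADM and ACADVL, the acyl-CoA dehydrogenases of medium and very long chains, overlapped between groups.

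Neither uptake gene was called by edgeR (against 23.4% of all genes tested), DESeq2 or limma voom. FABP5 had an unadjusted p under 0.05 in edgeR, and the share of all genes with such a p was not counted. FABP5, a cytosolic fatty acid carrier, measured 14.6, 10.3 and 12.9 FPKM in Vector 1, 2 and 3 and 15.9, 14.7 and 18.3 FPKM in OE-MMP28 1, 2 and 3. The groups did not overlap, and the log2 fold change was 0.38 (SE 0.17, adjusted p = 0.118). Its neighbours had a median of -0.39, and with that offset the log2 fold change was 0.77 (adjusted p = 0.00485). A processed copy, FABP5P7, held 49 to 111 counts per library, so reads of the pair may be divided. CD36, a fatty acid translocase, was at 0.142 to 0.286 FPKM, and its groups overlapped.

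The PPAR nuclear receptors, which bind fatty acids and control many of these genes, were not called by edgeR, DESeq2 or limma voom. Of all genes tested, 23.4% were called by edgeR, and 3 genes are too few to set apart from that share. An unadjusted p under 0.05 in edgeR was seen for 0 of the 3, and the share of all genes with such a p was not counted. PPARG was the most abundant by FPKM, at 18.3, 29.7 and 21.5 FPKM in Vector 1, 2 and 3 and 27.1, 24.2 and 26.1 FPKM in OE-MMP28 1, 2 and 3. PPARA and PPARD had log2 fold changes of -0.25 (adjusted p = 0.345) and -0.41 (adjusted p = 0.158), and all 3 receptors overlapped between groups.

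Differences along the chromosomes accompanied several of the calls. A local median, the median log2 fold change of the other tested genes that start within 5 Mb on either side, was beyond 0.3 in size for 11 of the 42 genes, and 10 of these had a fold change of the same sign as their neighbours. Of all genes tested, 23.8% had a local median of that size. How many of those had the same sign as their neighbours was not counted, so the 10 cannot be set against a background. The 10 include GPAM (-0.06), ACSL5 (-0.11) and DGAT1 (-0.12), with small log2 fold changes. HADHA and HADHB share a locus, as do GPAM and ACSL5. When the local median was used as an offset in edgeR, 6 of the 42 genes were called, 3 higher and 3 lower. Of all 15319 genes tested, 1135 were higher and 1225 lower with that offset, against 1795 and 1784 without it. The 6 were ELOVL1 (0.88), FADS3 (-0.98), PLIN2 (-3.03), PNPLA2 (-0.61), G0S2 (0.74) and FABP5 (0.77), with the log2 fold change beyond the local median in parentheses. The calls of SCD, LPIN1, MGLL and HADHA, whose local medians were beyond 0.3 in size, were lost. Those of ACSL1 and ABHD5 were lost too, although their local medians were only -0.11 and 0.09 and most of the log2 fold change stayed, at -0.62 (adjusted p = 0.116) and 0.63 (adjusted p = 0.0821). What sets the local medians was not tested.

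**Figure D5:**
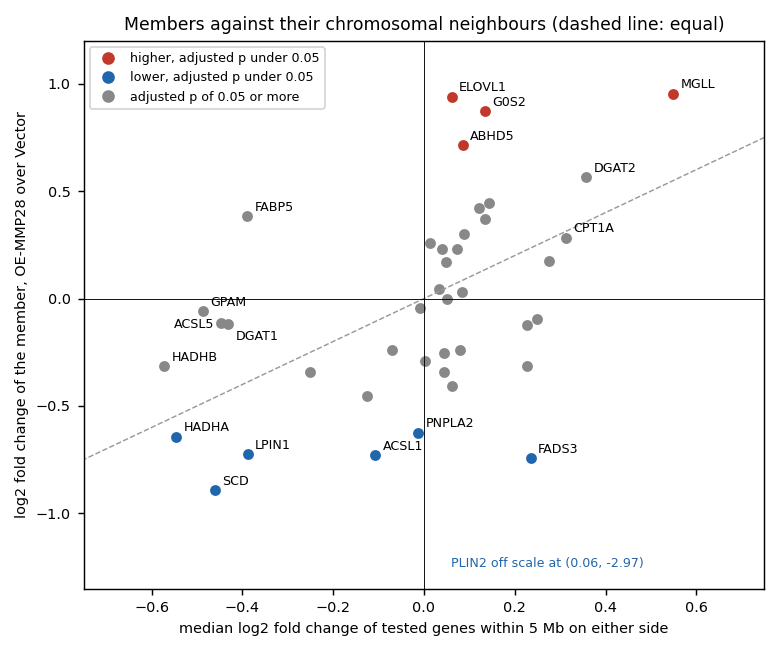
Log2 fold change of each of the 42 genes (vertical axis) against the median log2 fold change of the tested genes within 5 Mb on either side (horizontal axis), with a dashed line where the values are equal. HADHA and CPT1A lie near the line, ELOVL1, G0S2 and FADS3 lie far from it, and PLIN2 is off scale at a local median of 0.06.

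The libraries of a group also differed among themselves. Vector 2 was the highest or lowest Vector library for 36 of the 42 genes (85.7%), against 74.4% of all genes tested, and Vector 3 was so for 17 (40.5%), against 53.7%. Among the Vector libraries, Vector 2 was the highest for PNPLA2, PPARG, PPARD and MGLL and the lowest for ELOVL1. Leaving out any 1 library gave 3 to 5 genes higher and 5 to 7 lower.

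The other genes of the same pathways were taken from a list of 101 genes set by function, of which 76 could be tested. In OE-MMP28, 14 were higher and 9 lower at an adjusted p under 0.05 (30.3%, against 23.4% of all genes tested), and the median log2 fold change was 0.05. The higher genes were spread over synthesis (3), elongation and desaturation (1), lipolysis (2), uptake and binding (2), oxidation (5) and nuclear receptors with their partners (1). The lower genes came from synthesis (2), elongation and desaturation (1), activation (1), the droplet coat (1), uptake and binding (1), oxidation (2) and nuclear receptors with their partners and targets (1). Without OE-MMP28 2 the counts were 7 higher and 5 lower, without OE-MMP28 3 there were 8 higher, and without Vector 3 there were 7 higher.

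Among the lower genes of that list, the 4 with the largest differences came from synthesis (MLXIPL and ME1), fatty acid binding (FABP4) and the group of nuclear receptors and their targets (PDK4). PDK4, the pyruvate dehydrogenase kinase that spares glucose when fat is burned, measured 13.1, 20.7 and 14.8 FPKM in Vector 1, 2 and 3 and 8.14, 7.69 and 6.18 FPKM in OE-MMP28 1, 2 and 3 (log2 fold change -1.13, SE 0.18, adjusted p = 0.000184). MLXIPL, which encodes the carbohydrate response factor ChREBP, went from 3.56 ± 1.53 to 1.04 ± 0.373 FPKM (SD, n = 3 each; log2 fold change -1.77, adjusted p = 0.000248). ME1, the cytosolic malic enzyme that supplies NADPH for fatty acid synthesis, went from 4.69 ± 0.507 to 1.94 ± 0.46 FPKM (log2 fold change -1.26, adjusted p = 0.000263) and was called in all 19 alternative fits. FABP4, the fatty acid carrier of adipocytes and macrophages, held 10, 39 and 20 counts in Vector 1, 2 and 3 and 3, 3 and 4 counts in OE-MMP28 1, 2 and 3 (adjusted p = 0.00164). For all 4 genes the groups did not overlap. SLC27A1, a fatty acid transport protein, and ELOVL7, a further elongase, fell by 0.82 (adjusted p = 0.00956) and by 0.81 (adjusted p = 0.0261) on the log2 scale. The call of SLC27A1 was lost without Vector 2 (-0.62, adjusted p = 0.0509), and that of ELOVL7 without Vector 3 (-0.81, adjusted p = 0.0769), OE-MMP28 2 (-0.73, adjusted p = 0.119) or OE-MMP28 3 (-0.87, adjusted p = 0.0509).

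The named genes of the list that rose averaged under 1 FPKM in Vector, with 1 exception. ACAD9, a mitochondrial protein of the acyl-CoA dehydrogenase family that also assembles complex I, was at 6.29 ± 0.233 FPKM in Vector and 12.5 ± 1.25 FPKM in OE-MMP28 (SD, n = 3 each; log2 fold change 1.00, adjusted p = 0.000173). The local median at ACAD9 was 0.59, and with that offset the log2 fold change was 0.41 (adjusted p = 0.0854). SCD5, the other human stearoyl-CoA desaturase, held 5, 13 and 2 counts in Vector 1, 2 and 3 and 38, 31 and 34 counts in OE-MMP28 1, 2 and 3 (adjusted p = 0.0033), and its share of the summed desaturase FPKM was 0.0807% ± 0.068 and 0.655% ± 0.153. CPT1C, the CPT1 isoform of neurons, held 5, 2 and 1 counts in Vector and 16, 28 and 20 counts in OE-MMP28 (adjusted p = 0.00162). FABP6, the bile acid carrier of the ileum, and FABP2, the intestinal fatty acid carrier, reached 1.28 ± 0.161 and 1.49 ± 0.502 FPKM in OE-MMP28 from 0.361 ± 0.142 and 0.547 ± 0.252 FPKM (adjusted p = 0.00706 and 0.00866). PNPLA3, a paralogue of PNPLA2, held 7, 7 and 20 counts in Vector and 31, 38 and 45 in OE-MMP28 (log2 fold change 1.59, adjusted p = 0.0104). SAMM50, at a mean of 683 counts, shares 4.58% of the PNPLA3 exon length, so these counts are uncertain. Without OE-MMP28 3 the log2 fold changes of PNPLA3 and FABP2 were 1.48 (adjusted p = 0.0521) and 1.27 (adjusted p = 0.0598).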

How the data were processed

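RNA of the 6 libraries was prepared with the NEBNext Ultra kit, which does not mark strand. The authors deposited a table of unnormalised counts per gene and FPKM values for each library, together with fold changes and p-values of their own comparison, which were not used. The submitters' processing notes name HISAT2 2.0.5 and featureCounts 1.5.0-p3, and the counting options are not given in the sources used here. Coordinates of all 58735 genes were identical to GENCODE 29 (GRCh38). Counts were tested with edgeR 4.0.16 in R 4.3.3 (filterByExpr, minimum count 10 and minimum total 15, TMM, quasi-likelihood test, Vector against OE-MMP28 from the sample labels, Benjamini-Hochberg over 15319 genes), where the study's methods name limma. The standard error is the log2 fold change divided by the square root of F. FPKM served for levels. The script was checked on simulated data.

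The 42 genes, the pathway list and the tests were chosen with earlier results of these data known. Named genes were the 42, MMP28, and up to 12 genes of the pathway list with an adjusted p under 0.05, groups that do not overlap on TMM-scaled counts and the largest fold changes. Alternatives were other filters and scalings, DESeq2 1.42.0, limma 3.58.1 on counts (voom) and on log2(FPKM + 1 or 0.1), the replicate block, a local-median offset and leaving out each library. Total counts of 13633249 to 16691458 put the limit that a count of 0 allows (3 counts) at 0.180 to 0.220 CPM, for counting error only. The labels do not say that replicates were separate cultures, so p-values measure the spread between these libraries, which may be technical. No pair of libraries was a duplicate (chi-square per degree of freedom of 13.9 or more).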

Additional observations from a re-analysis of the deposited data

How the results depend on the processing

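Each of the 42 genes kept the sign of its log2 fold change wherever it was called, and no called value reversed under any of 20 settings. Requiring an absolute log2 fold change over 1 left 0 of the 42 genes higher and 1 lower (PLIN2), 5 higher and 4 lower of the pathway list, and 469 higher and 662 lower of all genes. limma on log2(FPKM + 1) and on log2(FPKM + 0.1) each left 3 of the 42 genes higher and 5 lower, without the calls of ACSL1 (adjusted p = 0.191 and 0.184), PNPLA2 (0.116 in both) and ABHD5 (0.137 in both). limma on log2(FPKM + 1) gave 5 and 5 of the pathway list and 1009 and 965 of all genes, and on log2(FPKM + 0.1) it gave 5 and 5, and 1000 and 970. Without a filter on FPKM the counts were 0 and 1 of the 42, 1 and 1 of the pathway list, and 362 and 308 of all genes. The local-median offset left 3 of the 42 higher and 3 lower, 8 and 7 of the pathway list, and 1135 and 1225 of all genes. Leaving out 1 library gave 7 to 14 higher and 5 to 12 lower in the pathway list, and 985 to 1916 higher and 1044 to 1949 lower among all genes. Of the log2 fold changes of single genes, 939 kept direction and call (called genes) or stayed within 1 SD (uncalled genes), 59 lost the call and 14 moved by more. For uncalled genes that tally looked at neither sign nor call. FABP5 gained a call with the local-median offset, AGPAT2 without OE-MMP28 1, and DGAT2 with the replicate block and without OE-MMP28 1 or Vector 2. Some uncalled genes changed sign, such as FASN in 4 of 19 fits. The causes were not tested.

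The replicate numbers did not pair the libraries. Deviations of same-numbered libraries from their group means correlated at 0.036, 0.018 and -0.139, and no library pair was defined by the labels. With the replicate block, 5 of the 42 genes were higher and 7 lower, 13 and 11 of the pathway list, and 1844 and 1841 of all genes. DGAT2 gained a call under the block (adjusted p = 0.0418). With 3 libraries a group, genes at a few counts, such as FABP4, CPT1C and SCD5, are limited by depth.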

Other observations

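MLLT3, a chromatin reader gene on chromosome 9 that starts 1233290 bases from PLIN2, was picked out after its values were seen. It held 1, 0 and 0 counts in Vector 1, 2 and 3 and 145, 122 and 87 counts in OE-MMP28 1, 2 and 3. Its log2 fold change was 7.89, the opposite direction to PLIN2.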
